A study of Rattus norvegicus with 9 samples.

Results

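The comparison described here asks which genes differed with the addition of spermidine and L-ascorbic acid to a fibre-filled nerve conduit, in the tissue that grew inside it. It sets 3 AFMC-AA-SP libraries against 3 AFMC libraries, 6 of the 9 libraries measured, and was chosen by those labels and not by any measured value. In every animal a 2-cm gap in the sciatic nerve was bridged with a synthetic tube, and RNA was taken on day 14 from the tissue inside it. The AFMC-AA-SP tube held aligned fibres and lengthwise microchannels, with spermidine on the fibre surface and ascorbic acid within the fibres. The AFMC tube held the same fibres and channels with neither molecule, and the Hollow tube, used here for orientation, was empty. No group with 1 of the 2 molecules was analysed, so effects of spermidine and of ascorbic acid cannot be told apart. The strain, sex, age and number of rats and the doses are not stated in these sources. Nothing says that the libraries of a group came from separate animals, so p-values measure only the spread between these libraries.

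Spermidine is a polyamine that cells make from ornithine by way of putrescine, take up from outside, acetylate for export or recycle from spermine. It is also the donor of hypusine, a modified lysine that the translation factor eIF5A needs. Ascorbic acid, vitamin C, keeps iron in its reduced state in a family of dioxygenases, which includes the prolyl and lysyl hydroxylases of collagen, the TET enzymes that oxidize 5-methylcytosine and many histone lysine demethylases. After a nerve is cut, Schwann cells lose contact with axons, take on a repair state and lead regrowth, while macrophages and neutrophils enter the wound. Peripheral nerve also carries fat cells in its outer sheath, the epineurium, whose lipid droplets are coated by perilipins.

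Of 21486 genes in the deposited table, 15659 passed a filter on low counts and were tested. Library totals ran from 18314489 to 20851786 counts in AFMC-AA-SP, from 18716985 to 26074134 in AFMC and from 18713061 to 22357385 in Hollow. AFMC replicate 3 (AFMC-3) stood apart from all others. On the first principal component, which held 32.9% of the variance, AFMC-3 lay at 72.3 and the other libraries between -23.5 and 9.93, so results are given with and without it. Schwann cell markers of the labelled tissue were present, 19 of 20 passing the filter. Levels are given as CPM, counts scaled to the library total.

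With edgeR's quasi-likelihood test and Benjamini-Hochberg adjustment over all tested genes, 0 genes passed an adjusted p of 0.05 between AFMC-AA-SP and AFMC (0% of tested genes), the smallest being 0.0553. At an unadjusted edgeR p under 0.05, 1579 genes were higher (10.1%) and 1129 lower (7.21%) in AFMC-AA-SP. Counts of list members at this threshold, given below, are to be read beside these shares. Without AFMC-3, edgeR called 3 genes (0.0192%): Adipoq and Scn7a, both higher, and Rpl35al1, lower. DESeq2 called 466 genes higher (2.98%) and 128 lower (0.817%) with all libraries, and 235 higher (1.5%) and 52 lower (0.332%) without AFMC-3. The edgeR count rested on AFMC replicate 2 more than on AFMC-3: without AFMC replicate 2, edgeR called 580 genes. In 1957 genes (12.5%) every AFMC-AA-SP library lay above every AFMC library, and in 1619 (10.3%) every one lay below. Log2 fold changes in these genes had median sizes of 0.39 for the higher and 0.25 for the lower, and 168 higher and 80 lower genes reached a size of 1. An exact permutation test of 3 against 3 libraries cannot go below p = 0.1.

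**Figure D1:**
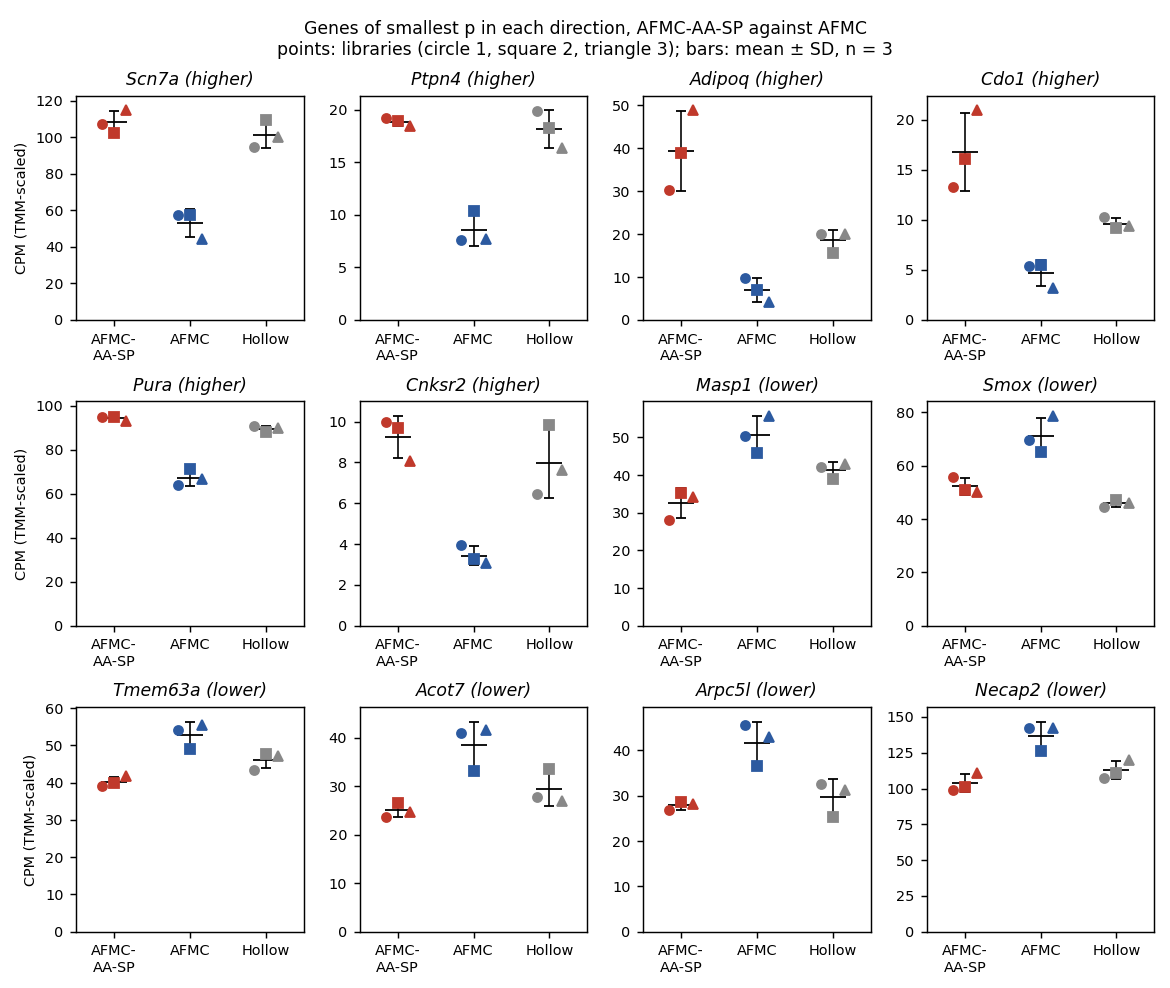
CPM (y axis, linear from 0) of the 6 leading genes of smallest edgeR p in each direction, by conduit (x axis) for AFMC-AA-SP, AFMC and Hollow. Points are libraries and bars the mean ± SD of 3 libraries; in all 12 genes the AFMC-AA-SP and AFMC libraries do not overlap, as the choice of genes required.

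With all libraries, fat cell genes had the highest median among the 28 gene lists described, and without AFMC-3 the second highest, after red blood cell genes. Adipoq encodes adiponectin, a hormone secreted by fat cells (ENSRNOG00000001821, chr11:77721912-77735564, minus strand, as the deposited table gives it, with no build named). It stood at 30.2, 38.9 and 48.8 CPM in the AFMC-AA-SP libraries, 9.83, 6.97 and 4.12 CPM in the AFMC libraries, and 19.997, 15.6 and 19.9 CPM in the Hollow libraries. The lowest AFMC-AA-SP library was thus above every AFMC and every Hollow library. The log2 fold change of AFMC-AA-SP over AFMC was 2.48 ± 0.29 (SE; edgeR adjusted p = 0.0553, 1.98e-13 by DESeq2), and it was 2.22 ± 0.24 without AFMC-3 (adjusted p = 0.0499 by edgeR). That call was narrow, and the adjusted p over the settings tried with edgeR ranged between 0.0208 and 0.274. In bulk tissue, fewer cells of a type and less RNA per cell cannot be told apart.

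Plin1, the perilipin that guards fat cell droplets (ENSRNOG00000015086, chr1:133664892-133676828, minus strand), stood at 16.1, 20.02 and 26.7 CPM in the AFMC-AA-SP libraries, against 4.86, 4.16 and 1.49 CPM in the AFMC libraries and 10.8, 7.81 and 11.02 CPM in the Hollow libraries. Its groups did not overlap, and its log2 fold change was 2.57 ± 0.38 (SE; edgeR adjusted p = 0.086, 4.51e-09 by DESeq2) and 2.21 without AFMC-3. Pck1, whose enzyme feeds glycerol synthesis in fat cells (ENSRNOG00000028616, chr3:161930256-161936191, plus strand), stood at 5.37, 6.13 and 9.86 CPM in the AFMC-AA-SP libraries, against 1.07, 0.973 and 0.695 CPM in the AFMC libraries and 2.67, 1.02 and 4.61 CPM in the Hollow libraries. Every AFMC-AA-SP library was above every AFMC and every Hollow library, with a log2 fold change over AFMC of 2.95 ± 0.51 (SE; edgeR adjusted p = 0.092). Cdo1, a cysteine dioxygenase abundant in fat and liver, stood at 13.3, 16.05 and 20.9 CPM in the AFMC-AA-SP libraries, against 5.37, 5.46 and 3.18 CPM in the AFMC libraries. Its log2 fold change was 1.84 ± 0.23 (SE; edgeR adjusted p = 0.0686). Cesl1, a carboxylesterase-like gene with more than 1 row in the deposited table, stood at 7.84, 5.85 and 11.1 CPM in the AFMC-AA-SP libraries, against 1.22, 1.13 and 0.745 CPM in the AFMC libraries in its row of most counts. That row had 2.98 ± 0.46 (SE; edgeR adjusted p = 0.0864), and how reads were shared among related carboxylesterase genes is not given.

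The promoters of 3 of these fat genes and of the sodium channel gene Scn7a are shown because these genes lead the difference. Each holds 250 bases before and 50 after the RefSeq start in the build GRCr8, on the gene's strand: chr11:91240120-91240419 (minus) for Adipoq, chr1:143086099-143086398 (minus) for Plin1, chr3:182348322-182348621 (plus) for Pck1 and chr3:71846235-71846534 (minus) for Scn7a. GRCr8 positions cannot be set beside those of the deposited table. Of the 30 leading genes, 24 had an entry by symbol in the promoter table. Capitals mark 4 short motifs searched on both strands: AGGTCA, the half-site of nuclear receptors, the sequence CCAAT, the box TATAAA and the sequence GGGCGG.
Adipoq: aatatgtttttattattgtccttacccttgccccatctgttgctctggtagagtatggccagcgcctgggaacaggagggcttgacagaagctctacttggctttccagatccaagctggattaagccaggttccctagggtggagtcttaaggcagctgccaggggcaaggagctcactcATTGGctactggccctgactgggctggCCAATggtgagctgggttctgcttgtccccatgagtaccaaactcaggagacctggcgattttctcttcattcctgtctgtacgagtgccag
Plin1: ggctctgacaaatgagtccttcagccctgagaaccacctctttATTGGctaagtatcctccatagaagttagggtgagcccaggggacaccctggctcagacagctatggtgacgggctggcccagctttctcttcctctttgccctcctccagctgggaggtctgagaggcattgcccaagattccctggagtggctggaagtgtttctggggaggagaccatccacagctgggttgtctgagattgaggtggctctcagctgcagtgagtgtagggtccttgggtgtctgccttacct
Pck1: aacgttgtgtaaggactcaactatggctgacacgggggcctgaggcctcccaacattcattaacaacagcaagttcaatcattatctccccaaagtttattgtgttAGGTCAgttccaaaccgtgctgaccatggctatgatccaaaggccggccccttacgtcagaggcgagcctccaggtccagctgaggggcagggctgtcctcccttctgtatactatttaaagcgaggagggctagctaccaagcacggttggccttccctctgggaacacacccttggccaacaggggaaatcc
Scn7a: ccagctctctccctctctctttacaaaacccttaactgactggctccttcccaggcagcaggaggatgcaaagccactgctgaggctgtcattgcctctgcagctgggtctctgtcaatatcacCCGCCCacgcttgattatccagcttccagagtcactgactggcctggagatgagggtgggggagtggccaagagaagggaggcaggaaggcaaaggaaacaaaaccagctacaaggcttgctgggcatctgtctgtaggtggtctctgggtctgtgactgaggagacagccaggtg
Adipoq held CCAAT on both strands, starting at -42 on the sense and -69 on the antisense strand, counted from the start site. Plin1 held it on the antisense strand at -207, Pck1 held AGGTCA on the sense strand at -144, and Scn7a held GGGCGG on the antisense strand at -126. Of 33469 promoters of this length, 37.5% held CCAAT, 33.1% GGGCGG, 16.2% AGGTCA and 14.2% TATAAA, so these matches are common and are given as a description only.

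Over the list of fat cell markers, 16 of 20 were tested, and 15 had a positive log2 fold change. Of the 16, 10 had an unadjusted edgeR p under 0.05 on the higher side (10.1% over all tested genes) and 0 on the lower (7.21%). DESeq2 called 8 higher (2.98% over all tested genes). Their median log2 fold change was 1.06, and 0.95 without AFMC-3, beside -0.01 and 0.00 over all tested genes. Further members, named after their values were seen, were among the 10. The leptin gene Lep stood at 2.95, 2.99 and 2.79 CPM in the AFMC-AA-SP libraries, against 0.908, 0.486 and 0.298 CPM in the AFMC libraries. The resistin gene Retn stood at 5.22, 7.11 and 10.1 CPM in the AFMC-AA-SP libraries, against 2.29, 1.73 and 0.844 CPM in the AFMC libraries. The droplet fusion gene Cidec had a log2 fold change of 2.07 ± 0.45 and the glycerol channel gene Aqp7 2.27 ± 0.54 (SE). The difference did not extend to every member. The fatty acid carrier gene Fabp4, also found in endothelium and macrophages, stood at 658, 573 and 715 CPM in the AFMC-AA-SP libraries, and 940.1, 517 and 209 CPM in the AFMC libraries. Its groups overlapped, and its log2 fold change was 0.22 ± 0.42 (SE) with all libraries and -0.17 without AFMC-3. Without AFMC-3, 13 of the 16 tested members were positive and 3 negative. The summed level of the list, in which abundant members weigh most, overlapped too. It was 1869 to 2696 CPM in AFMC-AA-SP, 764 to 2723 CPM in AFMC and 1749 to 2551 CPM in Hollow. Which members made the sums overlap was not tested.

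Of 3 other lists of fat metabolism, those of fat synthesis and of lipid droplets share members with the genes above, such as Pck1 and Plin1. Of 21 tested genes of fatty acid and triglyceride synthesis, 16 were positive, 9 had an unadjusted p under 0.05 on the higher side and 0 on the lower, with a median of 0.24 (0.18 without AFMC-3). Thrsp, a lipogenic regulator named after its values were seen, stood at 6.58, 15.2 and 19.8 CPM in the AFMC-AA-SP libraries, against 4.66, 1.35 and 1.39 CPM in the AFMC libraries. The desaturase gene Fads2 stood at 56.99, 65.97 and 61.6 CPM in the AFMC-AA-SP libraries, against 45.5, 46.4 and 42.5 CPM in the AFMC libraries, log2 fold change 0.46 ± 0.09 (SE; edgeR adjusted p = 0.107). Fads2 shares 16642 bases with Fth1 on the opposite strand, which went the other way, and since the libraries kept strand but the use of strand in counting is not stated, their reads cannot be told apart. Of 16 tested genes of lipid droplets and lipolysis, 11 were positive, 5 had an unadjusted p under 0.05 on the higher side and 2 on the lower, with a median of 0.31 (0.23 without AFMC-3). Plin4, another perilipin of fat cells, had 1.46 ± 0.30 (SE; edgeR adjusted p = 0.113). Of 6 tested genes of heat-producing fat, 4 were positive and the median was 0.54 (0.41 without AFMC-3). Only 1 had an unadjusted p under 0.05, on the higher side (10.1% over all tested genes). Ebf2, a regulator of fat precursors, had 0.65 ± 0.15, and Prdm16, a regulator of brown fat, 0.42 ± 0.19 with overlapping groups (SE).

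Genes of Schwann cells formed the second group. Scn7a, a sodium channel gene expressed by non-myelinating Schwann cells (ENSRNOG00000029342, chr3:51335841-51438256, minus strand), stood at 107, 102 and 115 CPM in the AFMC-AA-SP libraries, against 57.5, 57.6 and 44.4 CPM in the AFMC libraries and 94.8, 109.5 and 99.9 CPM in the Hollow libraries. AFMC-AA-SP thus lay above every AFMC library and within or just above the range of Hollow. The log2 fold change over AFMC was 1.02 ± 0.11 (SE; edgeR adjusted p = 0.0553, 5.99e-12 by DESeq2), and 0.91 ± 0.09 without AFMC-3 (adjusted p = 0.0453 by edgeR); over the settings tried with edgeR the adjusted p ranged between 0.0173 and 0.257. Over Hollow it was 0.09. Sox2, which encodes a factor that keeps Schwann cells immature, stood at 29.5, 31.6 and 25.8 CPM in the AFMC-AA-SP libraries, against 17.5, 18.5 and 14.6 CPM in the AFMC libraries, log2 fold change 0.78 ± 0.12 (SE; edgeR adjusted p = 0.0864). Of 19 tested Schwann cell members, 18 were positive, 10 had an unadjusted p under 0.05 on the higher side and 0 on the lower. DESeq2 called 7 higher (2.98% over all tested genes). The median was 0.51, and 0.33 with 16 positive without AFMC-3. The list's summed level was 2285 to 2655 CPM in AFMC-AA-SP, 1480 to 2362 CPM in AFMC and 2355 to 3362 CPM in Hollow, so AFMC-AA-SP and AFMC overlapped by 1 library.

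Adhesion molecules of neurons and synapses stood beside them. Of 28 tested members, 27 were positive, 8 had an unadjusted p under 0.05 on the higher side, 0 on the lower, and the median was 0.45 (0.31, with 26 positive, without AFMC-3). Chl1, a cell adhesion molecule of the L1 family that also stands in the Schwann cell list, stood at 51.4, 63.2 and 49.8 CPM in the AFMC-AA-SP libraries, against 21.01, 33.99 and 22.003 CPM in the AFMC libraries. It had log2 fold change 1.10 ± 0.18 (SE; edgeR adjusted p = 0.0896). Tenm2, a teneurin of neuronal contacts, stood at 12.9, 10.9 and 12.2 CPM in the AFMC-AA-SP libraries, against 5.57, 7.89 and 5.36 CPM in the AFMC libraries, with 0.94 ± 0.18 (SE; edgeR adjusted p = 0.107). Negr1, a neuronal growth regulator named after its values were seen, was near the floor in every library, at most 0.749 CPM in AFMC-AA-SP, against at most 0.162 CPM in AFMC.

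Among receptors for neurotrophic factors, only Ntrk2 was one of the 15 leading genes on the higher side. Ntrk2, the receptor of brain-derived neurotrophic factor, stood at 21.7, 18.5 and 24.3 CPM in the AFMC-AA-SP libraries, against 10.7, 13.3 and 9.34 CPM in the AFMC libraries and 15.997, 14.9 and 14.9 CPM in the Hollow libraries. Its AFMC-AA-SP libraries were above all others, with a log2 fold change over AFMC of 0.95 ± 0.15 (SE; edgeR adjusted p = 0.0864). Ngfr, the low-affinity neurotrophin receptor, stood at 235, 267 and 203 CPM in the AFMC-AA-SP libraries, against 165, 161 and 137 CPM in the AFMC libraries. In the Hollow libraries Ngfr stood at 227, 214 and 241 CPM. Its log2 fold change over AFMC was 0.60 ± 0.11 (SE; edgeR adjusted p = 0.107). Lifr, the receptor of leukaemia inhibitory factor, was named after its values were seen and had 0.98 ± 0.21 (SE). Of 20 tested members of the list, 15 were positive, 7 had an unadjusted p under 0.05 on the higher side and 0 on the lower, with a median of 0.28 (0.23 without AFMC-3). Among 19 tested sodium and potassium channel genes, 15 were positive, 5 had an unadjusted p under 0.05 on the higher side and 0 on the lower, with a median of 0.26 (0.25 without AFMC-3). Beside Scn7a, the pain channel gene Scn9a stood at 1.89, 1.03 and 1.04 CPM in the AFMC-AA-SP libraries, against 0.197, 0.324 and 0.149 CPM in the AFMC libraries.

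**Figure D2:**
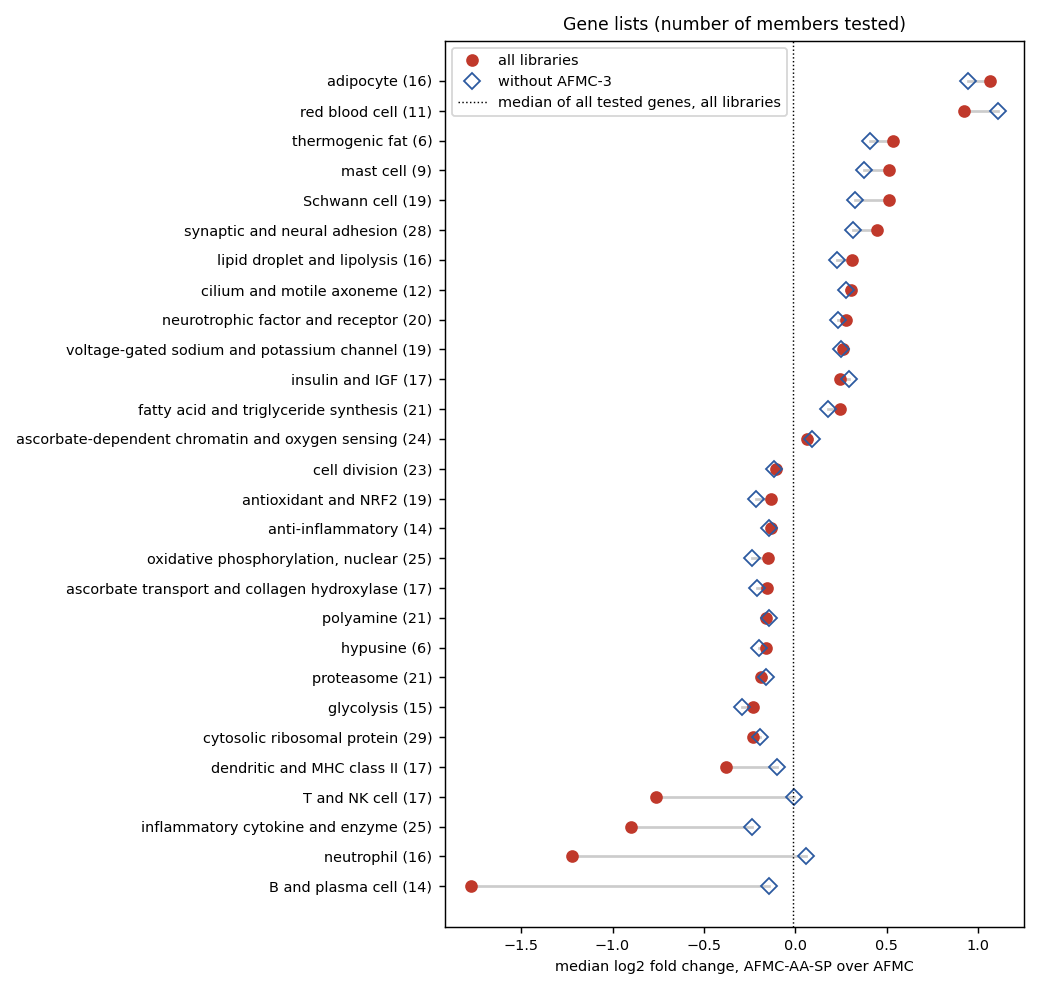
Median log2 fold change of AFMC-AA-SP over AFMC (x axis) for each of 28 gene lists (y axis, with the number of members tested), with all libraries (filled circles) and without AFMC-3 (open diamonds). The adipocyte list stands at 1.06 and 0.95, while the 5 lists at the bottom, of immune cells and inflammatory genes, move towards 0 without AFMC-3.

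Smaller groups on the higher side were as follows. Of 17 tested genes of insulin and IGF signalling, 14 were positive, 4 had an unadjusted p under 0.05 on the higher side and 1 on the lower, with a median of 0.24 (0.29 without AFMC-3). The insulin receptor gene Insr had 0.38 ± 0.14, and Igf1, a growth factor named after its values were seen, stood at 307, 347 and 306 CPM in the AFMC-AA-SP libraries, against 129, 255 and 232 CPM in the AFMC libraries. The binding protein gene Igfbp2 went the other way, at -0.84 ± 0.27 (SE). Of 12 tested genes of cilia, 11 were positive and 4 had an unadjusted p under 0.05 on the higher side, with a median of 0.30 (0.28 without AFMC-3), led by the axonemal dynein gene Dnah11 at 0.999 ± 0.24 and the cilium transport gene Bbs1 at 0.34 ± 0.10 (SE). Of 9 tested mast cell genes, 8 were positive and 1 had an unadjusted p under 0.05 on the higher side, a share near the 10.1% over all tested genes, with a median of 0.51 (0.38 without AFMC-3). The receptor gene Kit had 0.51 ± 0.20 and the mast cell protease gene Cpa3 0.61 ± 0.31 (SE).

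Red blood cell genes were also positive in 10 of 11, with a median of 0.92 (1.11 without AFMC-3). However, 1 had an unadjusted p under 0.05, on the higher side (10.1% over all tested genes). In 0 did the groups stand apart (12.5% higher and 10.3% lower over all tested genes). Their summed level was 1339.8, 2734 and 523 CPM in the AFMC-AA-SP libraries, 764, 646 and 999.9 CPM in the AFMC libraries, and 1386, 781 and 1039 CPM in the Hollow libraries. The AFMC-AA-SP libraries thus held both the highest and the lowest value of all 9. Slc4a1, the anion exchanger of red cells, stood at 2.52, 6.69 and 0.986 CPM in the AFMC-AA-SP libraries, against 0.829, 1.08 and 1.19 CPM in the AFMC libraries, and the haem synthesis gene Alas2 had 1.07 ± 0.53 (SE). The part of blood in the other results was not tested.

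The remaining leading genes on the higher side had no list in common. Ptpn4, a tyrosine phosphatase gene (ENSRNOG00000002625, chr13:30776682-30952170, minus strand), stood at 19.3, 18.9 and 18.5 CPM in the AFMC-AA-SP libraries, against 7.66, 10.4 and 7.75 CPM in the AFMC libraries and 19.9, 18.3 and 16.3 CPM in the Hollow libraries. Its log2 fold change was 1.14 ± 0.13 (SE; edgeR adjusted p = 0.0553, 1.06e-09 by DESeq2) over AFMC and 0.06 over Hollow. Itgb8, an integrin subunit that activates latent TGF-beta, stood at 208, 236 and 160.0 CPM in the AFMC-AA-SP libraries, against 57.98, 95.5 and 64.3 CPM in the AFMC libraries, with 1.47 ± 0.20 (SE; edgeR adjusted p = 0.0737). Pura, a nucleic acid binding protein gene, stood at 94.9, 94.9 and 93.05 CPM in the AFMC-AA-SP libraries, against 63.9, 71.4 and 66.95 CPM in the AFMC libraries, with 0.48 ± 0.06 (SE; edgeR adjusted p = 0.0737). The scaffold gene Cnksr2 had 1.42 ± 0.19, the ubiquitin ligase gene Ube3a 0.52 ± 0.07, the deubiquitinase gene Vcpip1 0.55 ± 0.08, the lipid transporter gene Abca8a 0.79 ± 0.12 and the nesprin gene Syne2 0.74 ± 0.11 (SE). C4b, a complement component gene named after its values were seen, stood at 766, 979 and 865 CPM in the AFMC-AA-SP libraries, against 425, 462 and 559.5 CPM in the AFMC libraries and 576, 474 and 594 CPM in the Hollow libraries. Its AFMC-AA-SP libraries were above all others, and its log2 fold change over AFMC was 0.85 ± 0.14 (SE), and 0.97 without AFMC-3.

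Leading genes on the lower side, chosen among genes with a symbol, differed by less. An unnamed gene, ENSRNOG00000069868, differed by more, at -6.75 ± 1.20 (SE; edgeR adjusted p = 0.0985), and is described at the end. Masp1, a protease of the lectin pathway of complement (ENSRNOG00000001827, chr11:77334859-77402974, plus strand), stood at 28.01, 35.3 and 34.2 CPM in the AFMC-AA-SP libraries, against 50.5, 45.9 and 55.6 CPM in the AFMC libraries and 42.2, 38.9 and 42.8 CPM in the Hollow libraries. Its AFMC-AA-SP libraries were below all others, with a log2 fold change over AFMC of -0.64 ± 0.11 (SE; edgeR adjusted p = 0.0896). Tmem63a, a mechanosensitive channel gene, stood at 39.1, 39.8 and 41.8 CPM in the AFMC-AA-SP libraries, against 53.99, 48.96 and 55.5 CPM in the AFMC libraries, with -0.39 ± 0.07 (SE; edgeR adjusted p = 0.107). The acyl-CoA thioesterase gene Acot7 had -0.62 ± 0.12, Arpc5l, of the actin-branching Arp2/3 complex, -0.58 ± 0.12, and the endocytosis gene Necap2 -0.40 ± 0.08 (SE). The other 9 outside the lists ran between -0.31 in the cell death gene Bak1 and -1.01 in the cadherin family gene Cdhr5. They were Scand1, Ssbp4, Tbc1d2, Rgs3, Slc43a2, Dcaf15 and the glutaredoxin gene Glrx beside these.

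Rpl35al1, the lower gene called without AFMC-3, is a ribosomal protein-like gene (ENSRNOG00000064222, chr11:67726032-67729942, minus strand). It stood at 1.55, 2.85 and 2.08 CPM in the AFMC-AA-SP libraries, 40.8, 19.2 and 2.09 CPM in the AFMC libraries and 1.96, 1.28 and 2.59 CPM in the Hollow libraries. The omitted library was the AFMC library at the level of the other conduits, and edgeR called the gene only in the fit without it, while DESeq2 called it with all libraries too (adjusted p = 0.0131 by DESeq2). The log2 fold change was -3.79 ± 0.38 without AFMC-3 (SE; edgeR adjusted p = 0.0453) and -3.26 ± 0.84 with it (adjusted p = 0.143). Ribosomal protein genes have many near-identical copies, and how such reads were counted is not given, so its values are uncertain.

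Genes that handle polyamines leaned to the lower side. Smox, which oxidizes spermine to spermidine (ENSRNOG00000021255, chr3:118731900-118765710, plus strand), stood at 55.8, 51.1 and 50.002 CPM in the AFMC-AA-SP libraries, against 69.7, 65.2 and 78.6 CPM in the AFMC libraries and 44.6, 47.2 and 45.9 CPM in the Hollow libraries. AFMC-AA-SP lay between the other groups and overlapped neither. The log2 fold change over AFMC was -0.45 ± 0.08 (SE; edgeR adjusted p = 0.104, 0.00109 by DESeq2) and -0.37 without AFMC-3. Ornithine decarboxylase, Odc1, which makes putrescine, stood at 60.9, 78.6 and 76.02 CPM in the AFMC-AA-SP libraries, against 84.8, 74.1 and 109 CPM in the AFMC libraries. Its groups overlapped, at -0.32 ± 0.15 (SE), and -0.15 without AFMC-3. Sat1, which acetylates spermidine, stood at 302, 277 and 274 CPM in the AFMC-AA-SP libraries, against 335, 276 and 247 CPM in the AFMC libraries, with -0.01 ± 0.11 (SE), so no difference was detectable.

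Of 21 tested polyamine genes, 17 had a negative value, with a median of -0.16 (-0.15, with 14 negative, without AFMC-3). An unadjusted p under 0.05 was found on the lower side in 5 (7.21% over all tested genes) and on the higher in 2 (10.1%). Oaz1, the antizyme that restrains ornithine decarboxylase, and Atp13a2, the lysosomal polyamine exporter, were named after their values were seen. Oaz1 stood at 300.4, 313 and 329 CPM in the AFMC-AA-SP libraries, against 427, 351 and 370.1 CPM in the AFMC libraries. Atp13a2 stood at 112, 101 and 102 CPM in the AFMC-AA-SP libraries, against 136, 127 and 242 CPM in the AFMC libraries, and its log2 fold change of -0.68 was -0.32 without AFMC-3. In the deposited table the whole span of Atp13a2, 19389 bases, overlaps the gene Sdhb on the same strand, so its counts are uncertain. The exception of largest size was Slc22a3, a low-abundance cation transporter gene that carries polyamines, at 3.43, 1.82 and 2.46 CPM in the AFMC-AA-SP libraries, against 0.632, 0.919 and 0.248 CPM in the AFMC libraries, with 2.10 ± 0.42 (SE; edgeR adjusted p = 0.107). Of 6 genes of the hypusine pathway and its autophagy targets, 5 were negative, 2 had an unadjusted p under 0.05 on the lower side and 1 on the higher, with a median of -0.16 (-0.20 without AFMC-3). Eif5a stood at 222, 246 and 247 CPM in the AFMC-AA-SP libraries, against 307, 267 and 278 CPM in the AFMC libraries, and Dohh, the enzyme that completes hypusine, stood at 9.09, 9.87 and 10.5 CPM in the AFMC-AA-SP libraries, against 14.1, 12.2 and 12.5 CPM in the AFMC libraries. In neither gene did the groups overlap. The log2 fold change of Eif5a was -0.25 ± 0.09, and that of Dohh was -0.40 ± 0.13 (SE). Eif5a shares 627 bases with a gene on the opposite strand.

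Genes that use ascorbate were read as 2 lists, whose difference was not tested. Of 17 tested genes of ascorbate transport and collagen hydroxylation, 13 were negative, with a median of -0.16 (-0.21 without AFMC-3). An unadjusted p under 0.05 was found on the lower side in 3 (7.21% over all tested genes) and on the higher in 1 (10.1%). The prolyl hydroxylase subunit gene P4hb stood at 1080.4, 1147 and 1172 CPM in the AFMC-AA-SP libraries, against 1372, 1267 and 1527 CPM in the AFMC libraries, with -0.29 ± 0.11, and P3h1, a prolyl 3-hydroxylase gene, had -0.25 ± 0.10 (SE). The catalytic subunit gene P4ha1 stood at 192, 198 and 177 CPM in the AFMC-AA-SP libraries, against 202, 177 and 187 CPM in the AFMC libraries, with 0.00 ± 0.16 (SE). The ascorbate transporter gene Slc23a2 stood at 116, 112 and 122 CPM in the AFMC-AA-SP libraries, against 109, 105 and 87.3 CPM in the AFMC libraries. Its groups did not overlap, and its log2 fold change of 0.22 ± 0.09 (SE) was 0.13 without AFMC-3. Of 24 tested dioxygenases of chromatin, RNA and oxygen sensing, 15 were positive, 6 had an unadjusted p under 0.05 on the higher side and 0 on the lower, with a median of 0.06 (0.09 without AFMC-3, and 0.00 with an offset for gene length). These 6 were the 5-methylcytosine oxidases Tet1, Tet2 and Tet3 and the histone demethylases Kdm5a, Kdm6a and Kdm7a. Kdm7a stood at 46.6, 33.5 and 29.8 CPM in the AFMC-AA-SP libraries, against 15.4, 23.5 and 11.03 CPM in the AFMC libraries, with 1.14 ± 0.27, and Tet3 stood at 45.9, 48.003 and 47.9 CPM in the AFMC-AA-SP libraries, against 27.6, 40.9 and 29.3 CPM in the AFMC libraries, with 0.54 ± 0.16 (SE). The prolyl hydroxylases that sense oxygen, Egln1, Egln2 and Egln3, had -0.03, -0.17 and -0.43. Set over Hollow in place of AFMC, Kdm7a had 0.01, Tet3 0.01 and Tet1 -0.22, and the median of the 24 genes was 0.01.

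**Figure D3:**
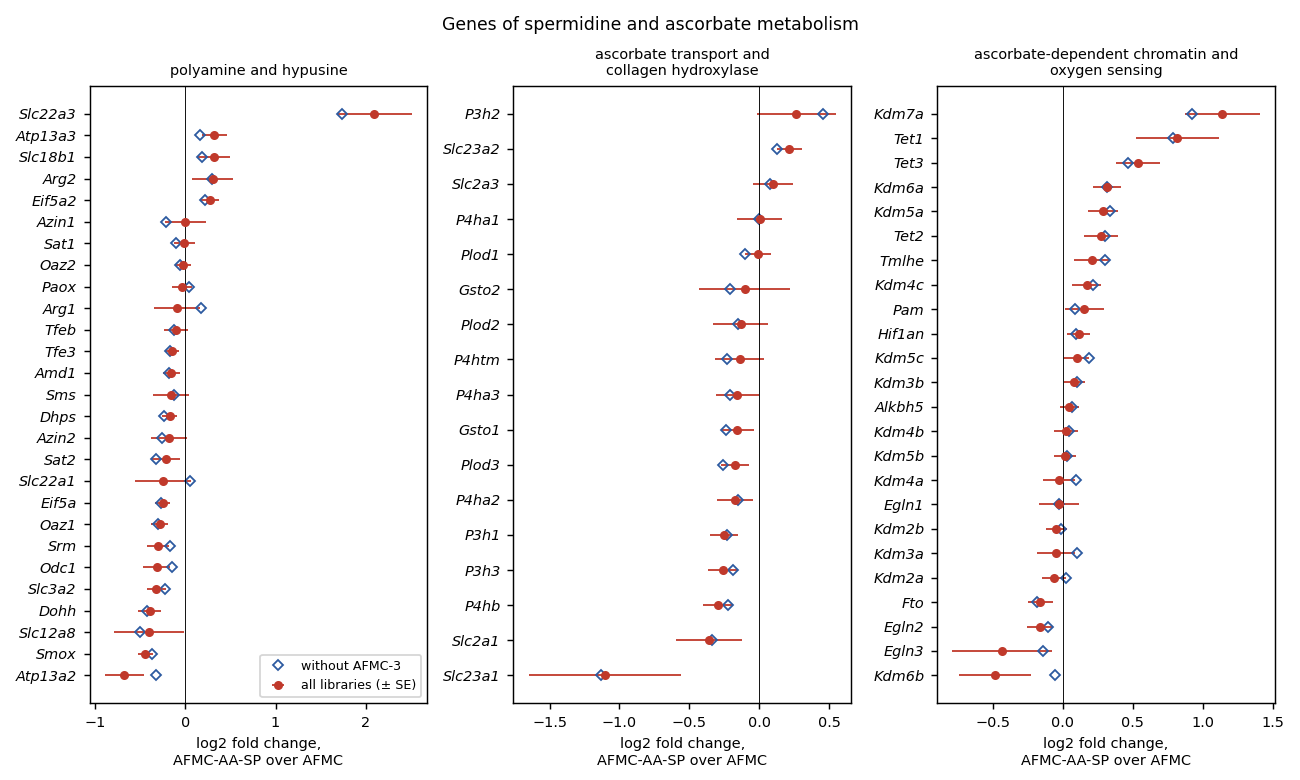
Log2 fold change of AFMC-AA-SP over AFMC (x axis) for every tested gene of the polyamine and hypusine lists (left), ascorbate transport and collagen hydroxylation (middle) and ascorbate-dependent chromatin and oxygen sensing (right). Filled circles with bars are the values ± SE with all libraries and open diamonds the values without AFMC-3; Slc22a3 at 2.10 and Smox at -0.45 mark the polyamine panel, and Kdm7a at 1.14 the right one.

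Genes of protein synthesis and breakdown and of energy supply had small negative values in nearly every member. Of 29 tested cytosolic ribosomal protein genes, 29 were negative and 13 had an unadjusted p under 0.05 on the lower side, with a median of -0.23 (-0.19 without AFMC-3). Rplp2, of the ribosomal stalk, had -0.38 ± 0.12 (SE). Of 21 proteasome genes, 21 were negative with all libraries and without AFMC-3, and 10 had an unadjusted p under 0.05, with a median of -0.19 (-0.16 without AFMC-3). The core subunit gene Psmb3 had -0.25 ± 0.08 and the ATPase subunit gene Psmc1 -0.20 ± 0.07 (SE). Of 25 nuclear genes of oxidative phosphorylation, 21 were negative and 3 had an unadjusted p under 0.05 on the lower side (7.21% over all tested genes), with a median of -0.15 (-0.24, with 24 negative, without AFMC-3), led by Ndufa1 at -0.63 ± 0.18 and Cox6c at -0.32 ± 0.13 (SE). Of 15 tested glycolysis genes, 14 were negative but 0 had an unadjusted p under 0.05, with a median of -0.23 (-0.29 without AFMC-3). Pkm had -0.30 ± 0.18 and the lactate exporter gene Slc16a3 -0.50 ± 0.31 (SE), both with overlapping groups. Of 23 tested genes of cell division, 16 were negative and 3 had an unadjusted p under 0.05 on the lower side (7.21% over all tested genes). DESeq2 called 0 of them (2.98% higher and 0.817% lower over all tested genes). Their median was -0.11 (-0.12 without AFMC-3). They were led by the mitotic kinase gene Aurka at -0.36 ± 0.12 and Mcm3 at -0.28 ± 0.12 (SE).

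Iron and oxidant defence genes were mixed. Of 19 tested members, 12 were negative, 4 had an unadjusted p under 0.05 on the lower side and 3 on the higher, with a median of -0.13 (-0.22 without AFMC-3). The ferritin heavy chain gene Fth1 stood at 2714, 2515 and 3178 CPM in the AFMC-AA-SP libraries, against 4643, 3236 and 5251 CPM in the AFMC libraries, with -0.64 ± 0.18 (SE). In the deposited table its span also overlaps Fads3 and Rab3il1 on the same strand, so its counts are uncertain. The mitochondrial superoxide dismutase gene Sod2 stood at 344, 327 and 402 CPM in the AFMC-AA-SP libraries, against 454, 469.7 and 1127 CPM in the AFMC libraries, and its log2 fold change of -0.93 was -0.37 without AFMC-3.

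These small differences ran with gene length. In the shortest decile of genes the median log2 fold change was -0.14, and 4.27% of genes were higher and 15.2% lower without overlap, while in the longest decile the median was 0.16, with 29.1% higher and 3.26% lower. Without AFMC-3 the medians of the shortest and longest deciles were -0.11 and 0.16. The higher genes without overlap had a median length of 4335 bp and the lower ones 2360 bp. Across genes, which are not independent, the rank correlation of gene length with each library's departure from the average library was 0.184, 0.162 and 0.0447 in AFMC-AA-SP, -0.307, -0.0344 and -0.191 in AFMC and 0.248, 0.083 and 0.014 in Hollow. AFMC-AA-SP over Hollow showed no such trend, with medians of -0.01 in the shortest decile and 0.00 in the longest. AFMC over Hollow, which shares the AFMC libraries with the main comparison, had medians of 0.14 in the shortest decile and -0.16 in the longest. The cause of the trend was not tested. The ribosomal protein genes had a median length of 1325 bp and the adhesion genes 5193 bp, beside 2956 bp over all tested genes. With an offset that follows gene length, the median of the ribosomal list was -0.15, of the proteasome list -0.12, of the polyamine list -0.09, of the chromatin dioxygenases 0.00, of the adhesion list 0.38, of the Schwann cell list 0.46 and of the adipocyte list 1.03. The sodium and potassium channel genes, with a median length of 6959 bp, had a median of 0.20 with this offset, and 0.13 without AFMC-3. With the same offset Pura had 0.22 in place of 0.48 and Syne2 0.44 in place of 0.74, while Adipoq had 2.56 and Scn7a 0.89.

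**Figure D4:**
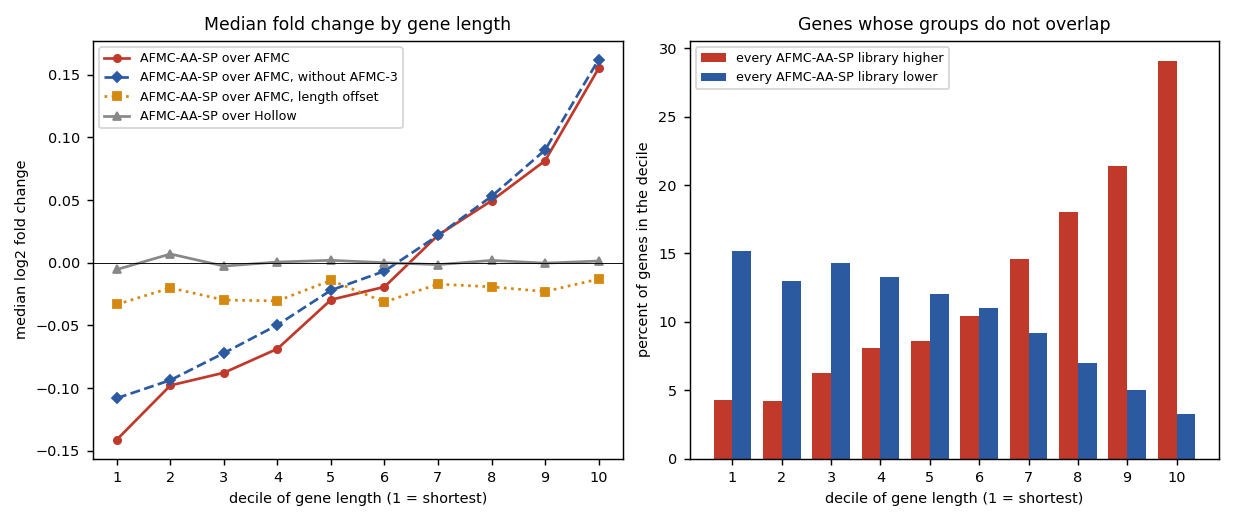
Left, median log2 fold change (y axis) by decile of gene length from the shortest to the longest (x axis), for AFMC-AA-SP over AFMC with all libraries, without AFMC-3 and with the length offset, and for AFMC-AA-SP over Hollow. Right, percent of genes in each decile (y axis, from 0) whose AFMC-AA-SP libraries all lie above or all lie below the AFMC libraries: 29.1% were higher and 3.26% lower in the longest decile.

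Differences in immune genes were largest in AFMC-3. Il1b, the inflammatory cytokine, stood at 62.2, 40.4 and 55.5 CPM in the AFMC-AA-SP libraries, against 45.8, 73.6 and 559.7 CPM in the AFMC libraries and 27.2, 20.4 and 20.6 CPM in the Hollow libraries. AFMC-AA-SP overlapped AFMC, and the log2 fold change of -2.10 ± 0.80 (SE) was -0.18 ± 0.24 without AFMC-3. Jchain, the joining chain of secreted antibodies, stood at 26.1, 25.97 and 24.97 CPM in the AFMC-AA-SP libraries, against 33.02, 108 and 937 CPM in the AFMC libraries and 19.5, 38.7 and 37.2 CPM in the Hollow libraries, and its log2 fold change of -3.81 ± 1.04 (SE) was -1.46 ± 0.44 without AFMC-3. Mzb1, of plasma cells, stood at 156 CPM in AFMC-3 and at most 9.13 CPM in any other library. ENSRNOG00000065917, an unnamed gene that lies wholly within the span of the antibody heavy chain gene Ighm on the same strand and was named after its values were seen, stood at 11.2, 16.4 and 19.9 CPM in the AFMC-AA-SP libraries, against 288, 201 and 8218 CPM in the AFMC libraries and 18.2, 134 and 261 CPM in the Hollow libraries. Every AFMC library of this gene lay above every AFMC-AA-SP library.

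The medians of the immune lists shrank or turned round without AFMC-3. That of B and plasma cells was -1.77 over 14 genes, 9 of them with an unadjusted p under 0.05, and -0.15 without it, Sdc1 keeping -0.41 and -0.42. The summed levels of B and plasma cell genes (568 to 626 CPM in AFMC-AA-SP, 752 to 2100 CPM in AFMC) and of neutrophil genes (467 to 629 CPM in AFMC-AA-SP, 697 to 1234 CPM in AFMC) did not overlap in any library. Sdc1, which other cell types also express, alone made up 347 to 394 CPM of the B and plasma cell sum in AFMC-AA-SP and 457 to 524 CPM in AFMC. With Sdc1 left out of that sum, AFMC replicate 1 lies within the AFMC-AA-SP range, so the lack of overlap there rests on Sdc1. Of the 16 tested neutrophil genes, 2 were lower and 1 higher without overlap (10.3% and 12.5% over all tested genes). Without AFMC-3, 8 of these 16 were positive and 8 negative. The median of neutrophils was -1.22 over 16 genes and 0.06 without AFMC-3, that of T and NK cells -0.76 over 17 and -0.01, and that of antigen presentation -0.38 over 17 and -0.10. Ccr7, which guides dendritic cells, stood at 10.4, 9.31 and 8.49 CPM in the AFMC-AA-SP libraries, against 15.2, 11.8 and 25.3 CPM in the AFMC libraries, and RT1-DMb had -0.36 ± 0.11 (SE). The T cell gene Cd2 had -0.82 and -0.44 without AFMC-3, and the cytotoxic granule gene Nkg7 -0.93 and -0.47. The neutrophil enzyme gene Mpo, at low level, was an exception with 1.98, 2.62 and 1.48 CPM in the AFMC-AA-SP libraries, against 0.197, 0.865 and 0.248 CPM in the AFMC libraries, while Padi4, another neutrophil gene, had at most 0.629 CPM in AFMC-AA-SP, against at most 2.83 CPM in AFMC.

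The list of inflammatory cytokines and enzymes kept part of its difference. Of 25 tested members, 24 were negative and 12 had an unadjusted p under 0.05, with a median of -0.90, and without AFMC-3 18 were negative with a median of -0.24. Its summed level was 798, 648 and 705 CPM in the AFMC-AA-SP libraries, 860.2, 981 and 2921 CPM in the AFMC libraries and 562, 633 and 517 CPM in the Hollow libraries, with no overlap between AFMC-AA-SP and AFMC. The monocyte chemokine gene Ccl3 stood at 37.7, 28.5 and 27.3 CPM in the AFMC-AA-SP libraries, against 55.2, 49.1 and 127 CPM in the AFMC libraries and 21.7, 27.1 and 24.7 CPM in the Hollow libraries. Its log2 fold change of -1.30 ± 0.33 was -0.74 ± 0.15 without AFMC-3 (SE; adjusted p = 0.138 and 0.213 by edgeR), and it shares 887 bases with Ccl4 on the opposite strand. Icam1, an adhesion receptor for leukocytes, stood at 114, 99.3 and 114 CPM in the AFMC-AA-SP libraries, against 149.6, 128 and 207 CPM in the AFMC libraries. Nos2, the inducible nitric oxide synthase gene, stood at 128, 65.5 and 96.7 CPM in the AFMC-AA-SP libraries, against 134, 180.1 and 730.2 CPM in the AFMC libraries, and Cxcl3, a neutrophil attractant gene, at 29.7, 30.8 and 30.5 CPM in the AFMC-AA-SP libraries, against 37.3, 56.7 and 75.4 CPM in the AFMC libraries, both named after their values were seen. Of 14 tested anti-inflammatory genes, 11 were negative and the median was -0.13 (-0.14 without AFMC-3). On each side 1 had an unadjusted p under 0.05, near the shares over all tested genes (10.1% higher and 7.21% lower). The scavenger receptor gene Cd163 stood at 65.5, 77.9 and 61.5 CPM in the AFMC-AA-SP libraries, against 32.8, 49.02 and 41.97 CPM in the AFMC libraries, with 0.73 ± 0.24, while the interleukin 1 receptor antagonist gene Il1rn had -0.45 ± 0.18 (SE).

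**Figure D5:**
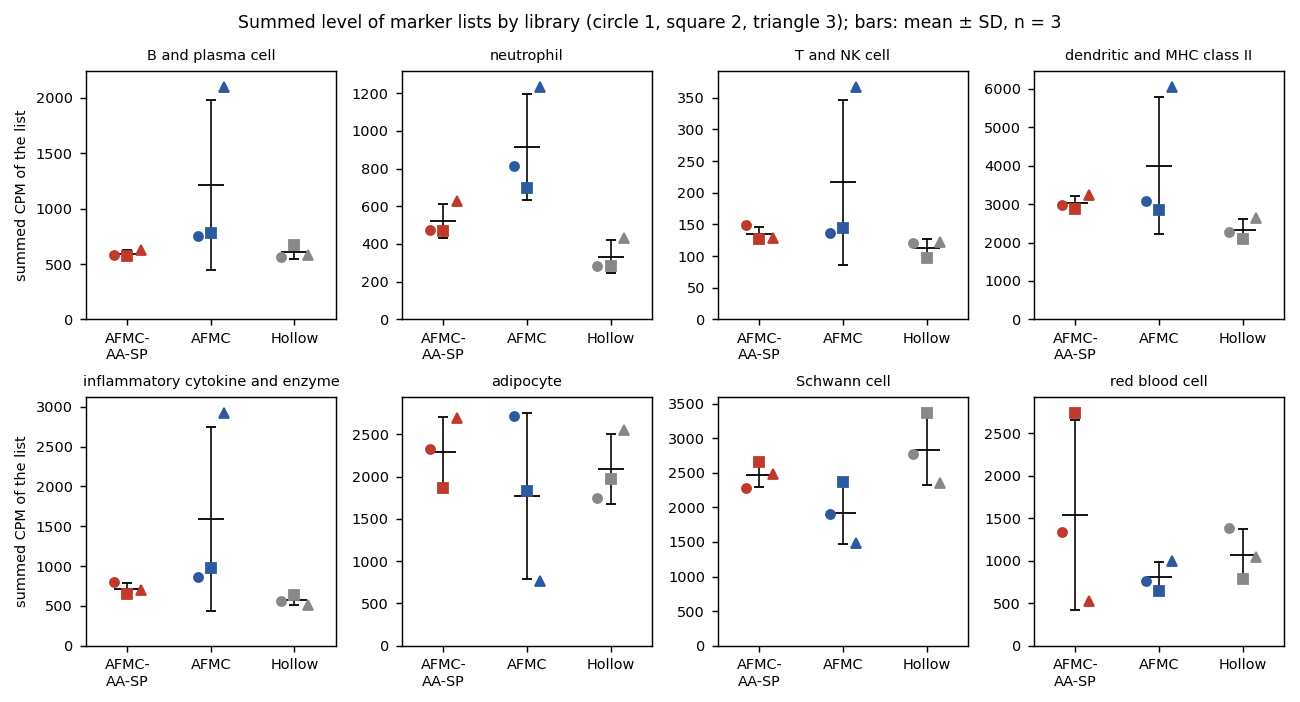
Summed CPM (y axis, from 0) of 8 marker lists in each library, by conduit (x axis), with the mean ± SD of 3 libraries. AFMC-3 (blue triangle) is the highest of 9 libraries in the 5 immune and inflammatory lists and the lowest in the adipocyte and Schwann cell lists.

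Outside the written lists, 2239 GO and KEGG terms with 10 to 200 tested genes were ranked by the smaller of their medians with and without AFMC-3, as a description with no test. Both fits put the term hair follicle development at the higher end, with 14 of 16 genes positive and a median of 0.45 with and without AFMC-3. The dystrophin-associated glycoprotein complex followed in this ranking, with 12 of 13 positive and medians of 0.32 and 0.31. At the lower end stood chemokine activity, with 0 of 12 positive and medians of -0.63 and, without AFMC-3, -0.51. The methylosome, whose proteins methylate spliceosome components, had 0 of 10 positive, 8 with an unadjusted p under 0.05 on the lower side, and medians of -0.24 and -0.25, and the U4 snRNP of the spliceosome had 2 of 11 positive and medians of -0.24 and -0.22. Genes of these 2 splicing terms are short, with median lengths of 1511 and 1467 bp, and with the length offset their medians were -0.18 each.

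Set beside Hollow, AFMC-AA-SP had 0 genes called by edgeR (0%), with a smallest adjusted p of 0.108 and 265 higher and 242 lower at an unadjusted p under 0.05. This comparison shares the AFMC-AA-SP libraries with the one above. Fat genes had positive values in both, with log2 fold changes over Hollow of 1.08 for Adipoq, 1.08 for Plin1, 1.35 for Pck1 and 1.46 for Cesl1. Other leading genes lay nearer to Hollow, such as Itgb8 at 0.08, Sox2 at 0.08, Ube3a at 0.00 and Bak1 at 0.00. Of other named genes, Ngfr had 0.05, Chl1 0.09, Fads2 -0.07 and Cd163 -0.09 over Hollow, while Ntrk2 had 0.50 and Tenm2 0.37. List medians over Hollow were 0.55 for fat cell, -0.11 for Schwann cell, -0.01 for adhesion and -0.07 for neurotrophic factor and receptor genes. Il1b had 1.21 and Ccl3 0.35 over Hollow.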

How the data were processed

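RNA of tissue from nerve conduits was measured in 9 libraries, 3 per group. Per the labels' protocols, poly(A) RNA was read as strand-specific dUTP libraries with paired ends. For the aligner, counter, genome build and annotation, the sources used here name none. The deposited table holds raw counts and FPKM per gene; per the file headers, the FPKM values were made by the authors, and the gene length they imply differed by at most 0.367% between libraries over 15024 genes. The 4 other sheets were not used.

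Counts were fitted with edgeR 4.0.16 in R 4.3.3: filterByExpr, TMM factors, then a two-sided quasi-likelihood test of AFMC-AA-SP minus AFMC from 1 model of the 3 conduit groups. Calls needed p under 0.05 after Benjamini-Hochberg adjustment over all tested genes. The common biological coefficient of variation was 0.197. The SE is the log2 fold change divided by the square root of F. CPM values use TMM-scaled totals, printed per library in the order of replicates 1 to 3. The fit was repeated without AFMC-3. Scripts were checked on simulated counts. Alternatives were DESeq2 1.42.0, limma 3.58.1 (voom with quality weights, and limma-trend on log2 FPKM with a pseudocount of 1 or 0.1), other scaling factors, filters and sets of libraries, a replicate block, and an offset per library from a lowess of deviation on gene length. Totals of 18314489 to 26074134 counts set the precision, and counts are reads, not molecules.

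Members and lists were chosen with earlier results of these data known. Of 71 gene lists with 1374 members, 1231 tested, 28 are described by counts and medians. They were chosen in part because their medians lay far from that of all tested genes in these same data. The choice was not strict, as hedgehog signalling genes, with 0.26 and without AFMC-3 0.19, are not among them. Members were matched by exact symbol. Named genes are the 15 of smallest edgeR p per direction with a symbol, whose libraries did not overlap and whose higher group averaged 5 CPM or more, those called without AFMC-3, the 2 members of smallest p of each described list, and 10 preset genes. Others are marked as named after their values were seen. Fabp4, Tet1, Tet2, Kdm5a, Kdm6a, Egln1, Egln2 and Egln3 carry no such mark but were also named outside these rules, with their values known. Promoters are RefSeq entries of GRCr8. Of 102 named genes checked for overlap, 17 overlap another tested gene, 15 of them on the opposite strand, and whether counting used strand is not stated. Tet2, Kdm5a, Kdm6a, Egln1, Egln2 and Egln3 were not checked. Some genes are not reported here.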

Additional observations from a re-analysis of the deposited data

How the results depend on the processing

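The count of called genes, 0 in the edgeR fit reported, was also 0 with RLE or upper-quartile factors, a filter of 1 CPM in 3 libraries, the 6 libraries alone, the length offset, voom weights and both FPKM scales, 6 with no filter, 594 with DESeq2 and 2 with the replicate block. Leaving out 1 library gave between 0 and 580 calls: 580 without AFMC replicate 2, 4 without AFMC replicate 1, 3 without AFMC-3 and 0 without any AFMC-AA-SP or Hollow library. The count of 3 called without AFMC-3 was 287 with DESeq2, 1 with the 5 libraries alone (ENSRNOG00000065917, which is none of the 3), 0 with the replicate block, and 2 with RLE factors, the stricter filter or the length offset. Same-numbered AFMC-AA-SP and AFMC libraries correlated in their deviations from the group mean at 0.0348, 0.14 and -0.0163, and other pairs between -0.129 and 0.0743. Whether libraries of the same number are linked was not tested. Of 102 named genes followed over the settings, Slc23a2, Sat1, P4ha1 and Fabp4 turned sign under some setting. Tet2, Kdm5a, Kdm6a, Egln1, Egln2 and Egln3 were not followed. Slc23a2 had -0.0019 with the length offset and AFMC-3 left out. Sat1 had 0.061 on either FPKM scale, 0.082 with the length offset, and ranged from -0.11 to 0.12 with 1 library left out. P4ha1 had -0.0043 with RLE factors and with DESeq2, -0.0048 with the replicate block, -0.068 with the length offset and -0.042 to 0.056 with 1 library left out. With AFMC-3 left out, P4ha1 had -0.0100 with RLE factors, -0.0022 with the stricter filter, -0.0028 with 5 libraries, -0.0099 with DESeq2 and -0.067 with the length offset. Fabp4 ranged from -0.17 without AFMC-3 to 0.84 without AFMC replicate 1. With AFMC-3 left out it had, with RLE factors -0.18, with the stricter filter -0.17, with 5 libraries -0.17, with DESeq2 -0.17, with the length offset -0.090 and with the replicate block -0.24. The cause of these shifts was not tested. Genes under 1 CPM rest on few reads, and 3 libraries a group limit the precision of the rest.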

Other observations

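The other 43 gene lists had medians between -0.21 and 0.37 with all libraries. Without AFMC-3 they lay between -0.38, in the osteoclast and giant cell list (-0.10 with all libraries, and 0 of 11 positive without AFMC-3), and 0.38, in the lymphatic endothelial list (-0.06 with all libraries). Genes of endothelial cells (median 0.00 over 19), fibroblasts (-0.01 over 20), collagen chains (-0.01 over 20) and macrophages (-0.10 over 21) stood near the median of all tested genes, and without AFMC-3 their medians were 0.05, 0.03, -0.09 and -0.08. The myelin sheath list was positive in 19 of 19 genes with a median of 0.26, and 0.09 without AFMC-3. The interferon response list had -0.01 with all libraries and 0.29 without AFMC-3, and the unfolded protein response list -0.21 and -0.01. ENSRNOG00000069868, an unnamed gene on the same chromosome as ENSRNOG00000065917, was named after its values were seen. It stood at 0.532, 0.140 and 0.383 CPM in the AFMC-AA-SP libraries, 42.4, 10.9 and 61.4 CPM in the AFMC libraries, and 13.2, 2.94 and 0.790 CPM in Hollow. Its log2 fold change over AFMC was -6.75 ± 1.20 (SE; edgeR adjusted p = 0.0985). Without AFMC-3 it was -6.24 ± 1.19 (SE; edgeR adjusted p = 0.213).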
